A study of Mus musculus with 10 samples.

Results

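Ccl6 and Ccl9, 2 of the 31053 genes of the count matrix, were taken by their symbols and followed through every cell type, every microglial state and all 10 labelled libraries of a single-cell RNA sequencing study of brain immune cells. The study asked whether the inflammasome sensor Nlrp3 shapes microglial activation in the presence of amyloid. CD45+ cells were sorted from whole brains of WT, NLRP3.KO, APP/PS1 and APP/PS1 NLRP3.KO mice at 3 and 9 months, and of WT and NLRP3.KO mice also at 6 months. Each combination of genotype and age was 1 library, made from the pooled brains of 3 mice (2 males and 1 female).

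APP/PS1 mice carry transgenes for APP with the Swedish mutation and for mutant human presenilin-1, both expressed in neurons of the central nervous system. NLRP3.KO mice lack Nlrp3 in the whole body, so every cell type of these libraries carries the deletion. WT and NLRP3.KO mice without the transgenes are called non-diseased here, as in the study. All brains were dissociated in the presence of actinomycin D, a blocker of transcription, and in the cold, which limits genes switched on by the dissociation itself. Because the mice of a library were pooled, there is no replicate of a genotype at an age, and the tests below treat libraries of different ages or backgrounds as repeats.

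Ccl6 and Ccl9 are secreted CC chemokines, small proteins that attract leukocytes by binding G protein-coupled receptors. Both act on Ccr1, a receptor of monocytes, neutrophils and other myeloid cells, and both are made mainly by myeloid cells. In mice their genes sit next to each other in the cluster of CC chemokine genes on chromosome 11.

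In the GENCODE M21 annotation of GRCm38, Ccl6 (ENSMUSG00000018927.3) is a protein-coding gene at chr11:83587882-83593087 on the minus strand, and Ccl9 (ENSMUSG00000019122.8) lies at chr11:83572919-83578636 on the same strand. Only 9245 bases separate them, and the nearest other members of the family examined, Ccl3, Ccl5 and Ccl4, lie 54756, 57363 and 69496 bases from Ccl6. Nlrp3 is on the same chromosome, 24.02 Mb from Ccl6. Ccl6 also lies within the span of E230016K23Rik, a noncoding gene of the opposite strand, but shares 0 of its 1795 exon bases with it. The transcripts of the 2 chemokines had 1 exact run of 25 bases in common and none longer, so few reads could fit both genes.

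The 250 bases in front of each RefSeq start site (GRCm38.p6, minus strand, written 5′ to 3′) are shown because these neighbouring genes were both on in microglia and other myeloid cells. Capitals mark the best local alignment between them, 17 bases of which 16 are identical, at 59 to 43 bases before the start of Ccl6 and 18 to 2 bases before that of Ccl9. The first lies at chr11:83593088-83593337 and the second at chr11:83578637-83578886.
Ccl6: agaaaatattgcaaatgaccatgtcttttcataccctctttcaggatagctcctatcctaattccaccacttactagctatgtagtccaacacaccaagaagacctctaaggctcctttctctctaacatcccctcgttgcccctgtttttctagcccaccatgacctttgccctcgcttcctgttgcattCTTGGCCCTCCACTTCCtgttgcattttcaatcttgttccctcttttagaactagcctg
Ccl9: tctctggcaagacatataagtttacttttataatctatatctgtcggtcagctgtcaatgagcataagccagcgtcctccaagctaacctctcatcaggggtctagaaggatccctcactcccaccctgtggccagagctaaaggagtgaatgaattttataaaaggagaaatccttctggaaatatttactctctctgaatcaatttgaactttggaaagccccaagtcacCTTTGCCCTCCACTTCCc

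Searched on both strands, the shared stretch held the 1 match to GGAAGT, the core recognised by ETS factors, in each window, and such a match was found in 19.7% of 32851 promoters of the same length. The longer word GAGGAAGT, bound by the myeloid factor PU.1, was in neither window (2.44% of promoters), nor were the C/EBP word TTGCNNAA (9.56%) and the CRE word TGACGTCA (1.55%). The word TGANTCA, a loose form of the AP-1 word in which N stands for any base, was found 0 times in the Ccl6 window (6.75% of promoters). It was found 1 time in the Ccl9 window, as TGAATCA at 53 bases before the start. This match rests on the open middle base. TATAAA occurred 3 times in the Ccl9 window, nearest at 92 bases before the start, and 0 times in that of Ccl6 (12.4%). These matches describe letters and show no binding.

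The 10 libraries held 45472 cells, of which the authors annotated 40547 as microglia, and the microglia of a library held 9357431 to 35107144 UMIs (unique molecular identifiers, each standing for 1 captured RNA molecule). Levels are given as CPM, the usual scaling of a gene's UMIs by all UMIs summed over a population. Nlrp3 was counted 390 to 1425 times in the microglia of the 5 libraries labelled as carrying the gene and 0 times in the 5 libraries labelled NLRP3.KO. Of the 45225 cell barcodes, 246 occurred in more than 1 library. The libraries differed in their make-up, with microglia at 71.4% to 95.3% of cells and disease-associated microglia (DAM) at 0.431% to 11.7% of microglia. The APP/PS1 library of 9 months had both the lowest share of microglia and the highest share of DAM. The libraries of each age formed a batch of their own, which means that age cannot be told apart from batch.

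The study split microglia into homeostatic cells (HM), DAM and cells in transition to DAM (TM). Further states were an interferon response (IRM), proliferating cells (PM) and a cluster with immediate early genes (IEG), which the study ties to dissociation. These are clusters built from the expressed genes, Ccl6 and Ccl9 possibly among them, so differences between states and cell types are described without a test. The marker lists were of cell types. Microglial markers led in every microglial state, so the names of the states are the study's and were not checked by these lists. Markers matched the names of the cell types described here, with 1 exception. In border-associated macrophages (BAM) the 8 microglial markers summed to 2739 CPM and the 8 border macrophage markers to 2166 CPM, whereas in Lyve1-positive BAM (BAM Lyve1) the border macrophage markers led with 9871 CPM against 2746 CPM.

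Ccl6 RNA was concentrated in myeloid cells and was highest in the few mast cells and basophils, in DAM and in monocytes. The 28 cells annotated as mast cells or basophils held 578 Ccl6 UMIs, which is 2657 CPM with a 95% Poisson interval from 2444 to 2882 (intervals cover counting error only). All 8 mast cell and basophil markers were counted in this group, though not in every cell. The 24 cells with a UMI of the basophil protease gene Mcpt8 had 2605 CPM. A Ccl6 UMI was found in 19 of the 28 cells. Single cells in this group held up to 79 Ccl6 UMIs, and 1 library alone had at least 10 such cells.

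Over the libraries with at least 10 cells of a population, the mean Ccl6 level was 967 CPM ± 170 (SD, n = 5) in monocytes (Mono), 859 ± 521 (n = 10) in DAM and 510 ± 54.0 (n = 6) in non-classical monocytes (Mono NC). IEG microglia followed with 347 CPM ± 139 and BAM with 302 ± 126, PM with 255 ± 197, cDC2 dendritic cells with 251 ± 79.7 and BAM Lyve1 with 214 ± 98.7 (n = 10 for each). TM, HM and IRM followed with 200.4 ± 46.4, 155 ± 23.2 and 138 ± 60.6 CPM (n = 10 for each). Among populations with at least 3 such libraries, neighbours in this order overlapped in their ranges except IRM and plasmacytoid dendritic cells (pDC), where the order drops to the level of lymphocytes. TM was nevertheless above HM in 10 of 10 libraries.

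Lymphoid cells, which should hold little of either RNA, gave the background level. T cells had 8.17 CPM ± 5.87, B cells 7.13 ± 8.71 and NK cells 8.52 ± 10.7 (n = 10 for each). A Ccl6 UMI was seen in 3.13% of T cells and 4.32% of B cells, at median depths of 5810 and 4671 UMIs, but in 40.4% of HM at 4366 UMIs, 61.4% of IEG at 5408 UMIs and 83.6% of DAM at 5726 UMIs. With every cell thinned to 1500 UMIs the shares were 0.688% of T cells, 1.13% of B cells, 17.9% of HM, 29.5% of IEG and 58.3% of DAM. Microglia of every state thus held Ccl6 far above the lymphocyte background.

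Ccl9 ordered the populations differently. Mast cells and basophils had 814 CPM from 177 UMIs (95% Poisson interval 698 to 943), and monocytes had 615 CPM ± 187 (SD, n = 5). IEG microglia came next with 356 ± 131 CPM (n = 10), then cDC2 with 335 ± 71.6 and DAM with 236 ± 66.1. BAM had 221 ± 39.0 CPM and PM 169 ± 19.98, and IRM, BAM Lyve1, HM and TM lay between 121 and 157 CPM.

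Neighbours in the Ccl9 order again overlapped in range except TM and NK cells, where the level drops from 121 CPM ± 18.5 to 22.8 ± 18.2 (n = 10 for each). HM was above TM in 10 of 10 libraries, the reverse of the order for Ccl6. A Ccl9 UMI was seen in 36.7% of HM, 56.8% of IEG, 53.2% of DAM and 79.4% of cDC2, the last at a median of 11289 UMIs, against 2.19% of T cells and 4.88% of B cells. After thinning, the shares were 17.1% of HM, 28.9% of IEG, 26.2% of DAM, 38.1% of cDC2, 0.563% of T cells and 1.501% of B cells.

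**Figure D1:**
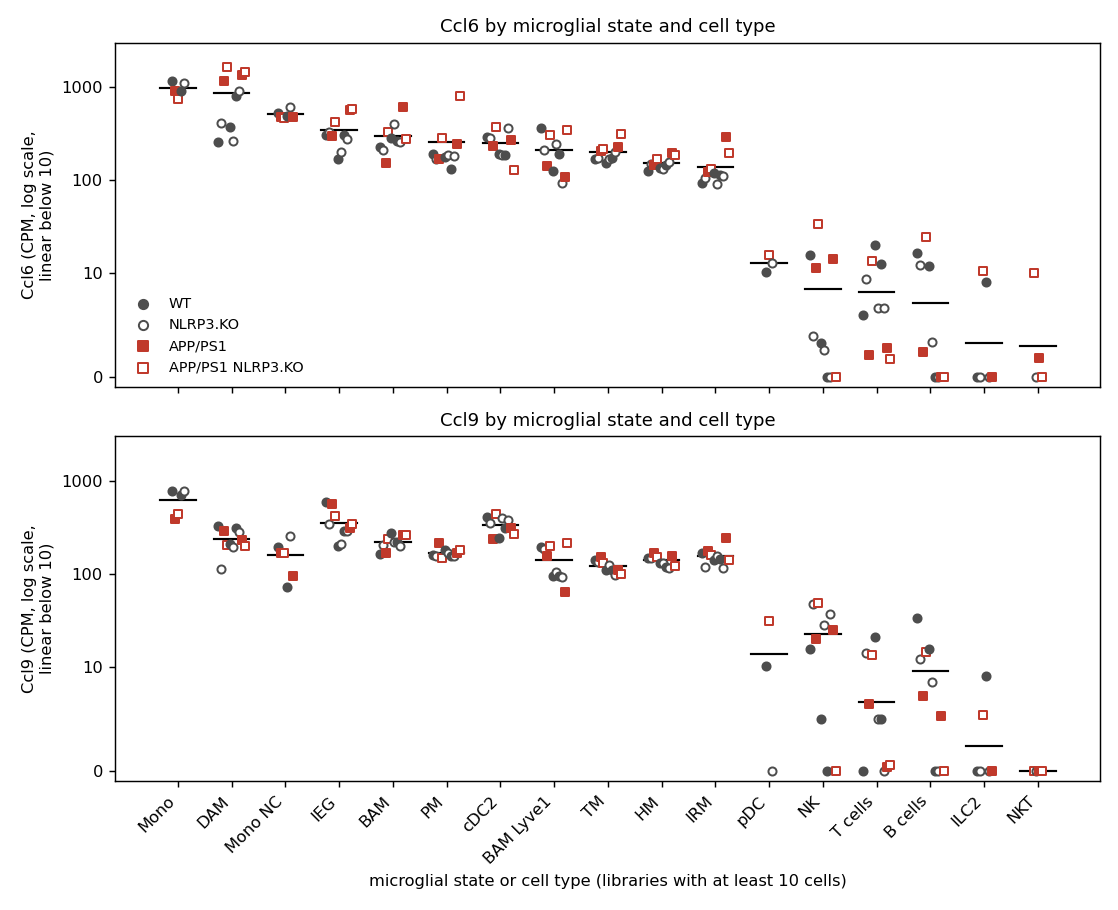
Levels of Ccl6 and Ccl9 in CPM (log axis, linear below 10) for each cell type and microglial state, where each symbol is 1 library with at least 10 cells (grey circles non-diseased, red squares APP/PS1, open symbols NLRP3.KO) and the black bar is the mean. The red squares of Ccl6 in DAM, from 1151 to 1636 CPM, all lie above the grey circles, whereas those of Ccl9 lie among them.

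By their means over libraries, the 2 genes peaked in different microglial states. The order of DAM and IEG varied in single libraries. Ccl6 was higher in IEG than in DAM in WT at 3 months. Ccl9 was higher in DAM than in IEG in WT at 6 and 9 months. Relative to HM of the same library, Ccl6 in DAM was higher by 2.19 ± 0.87 on the log2 scale (mean ± SD, 10 of 10 libraries) and in IEG by 1.08 ± 0.41 (10 of 10). Ccl9 in IEG was higher by 1.27 ± 0.43 (10 of 10) and in DAM by 0.71 ± 0.51 (9 of 10). IRM was below HM for Ccl6 in 8 of 10 libraries and above HM for Ccl9 in 8 of 10.

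The libraries separated by transgene for Ccl6 in DAM but not for Ccl9 in DAM. In non-diseased DAM, Ccl6 was at 255, 369 and 799.6 CPM in WT at 3, 6 and 9 months (31, 55 and 55 cells) and at 417, 265 and 900.2 CPM in NLRP3.KO (37, 59 and 102 cells). It was at 1151 and 1337 CPM in APP/PS1 at 3 and 9 months (24 and 253 cells) and at 1636 and 1465 CPM in APP/PS1 NLRP3.KO (83 and 202 cells). The 4 APP/PS1 libraries therefore lay above all 6 non-diseased libraries, with the 9-month non-diseased libraries in between. In a fit over 4 pairs of an APP/PS1 with a non-diseased library, matched for age and Nlrp3 genotype, Ccl6 in DAM rose with APP/PS1 by 1.45 ± 0.21 (SE) on the log2 scale (edgeR, adjusted p = 0.000103). Of the 5293 genes tested in DAM 2.7% were called, that is, had an adjusted p under 0.05 together with a log2 fold change beyond 1 in either direction. The alternatives gave 1.21 to 1.71 for Ccl6, with adjusted p from 4.35e-20 to 0.00643.

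Sums of marker lists differed between the same DAM libraries. The monocyte markers, of which 0 to 7 of 8 were counted in a library, summed to 8.24 to 42.8 CPM with APP/PS1 (median 26.4) and to 0 to 20.5 CPM in the 4 non-diseased libraries of the pairs (median 12.9). The microglial markers summed to 19417 to 23405 CPM (median 21579) against 20903 to 28001 CPM (median 26823), with all 8 counted in every library. The dendritic cell markers include Siglech, which is also 1 of the 8 microglial markers, so their sum does not stand for dendritic cells alone. Of these markers 1 to 5 of 9 were counted. They summed to 1194 to 2942 CPM (median 2186) against 1554 to 4418 CPM (median 3106). The ranges of the groups overlapped for each list, and the part of these markers in the Ccl6 result was not tested.

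For Ccl9 in DAM the values were 329, 208 and 311 CPM in WT and 113, 193 and 282 CPM in NLRP3.KO at 3, 6 and 9 months. They were 290.0 and 229.5 CPM in APP/PS1 and 204 and 202 CPM in APP/PS1 NLRP3.KO at 3 and 9 months. The APP/PS1 libraries lay within the range of the non-diseased ones, and the same fit gave a log2 fold change of -0.01 ± 0.19 (adjusted p = 0.989).

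Cells thinned to 1500 UMIs were also compared by how many UMIs each held. At least 3 Ccl6 UMIs were found in 29.2% of DAM from APP/PS1 libraries, 8.85% of DAM from non-diseased libraries and 0.588% of HM. For Ccl9 the shares with at least 3 UMIs were 2.49% and 1.47% of DAM in these groups. The cells of all libraries of a group were pooled, and the groups differ in age. Of the 562 DAM with APP/PS1, 253 and 202 came from the libraries of 9 months. Of the 339 non-diseased DAM, 55 and 102 did.

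**Figure D2:**
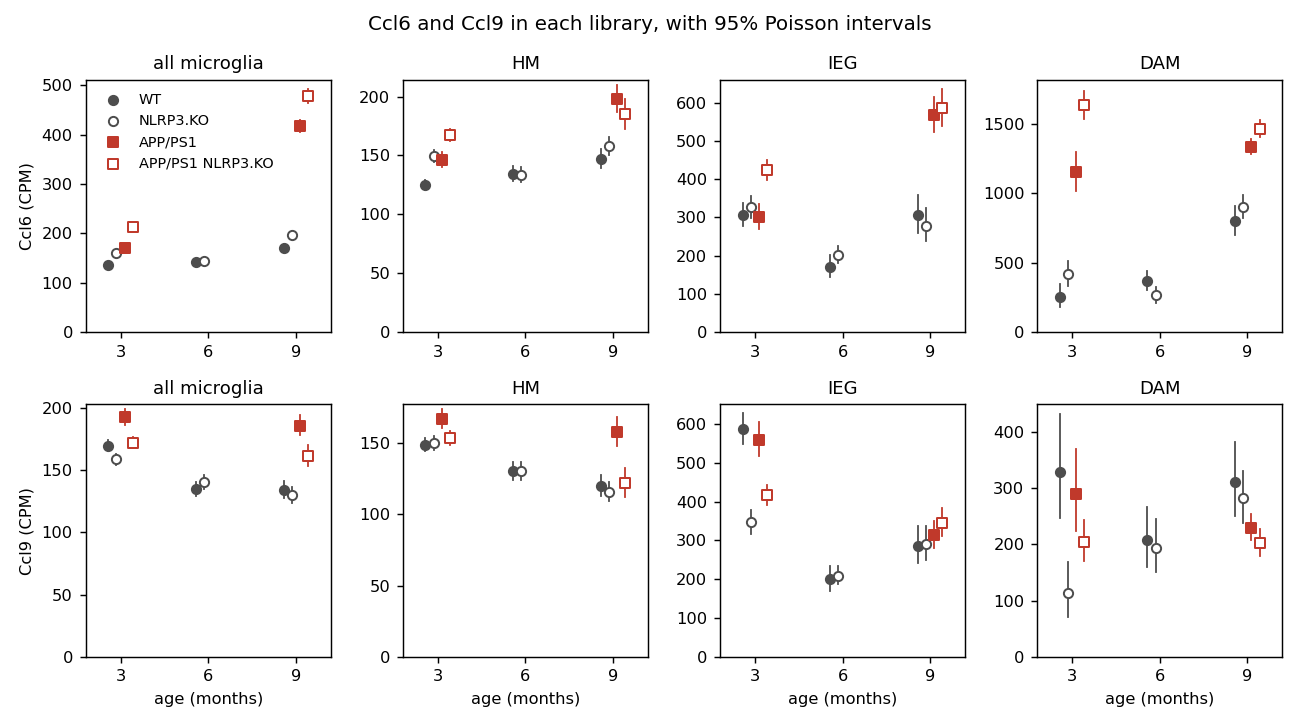
Ccl6 and Ccl9 in CPM against age in months, in all microglia, HM, IEG and DAM, where each symbol is 1 library (grey circles non-diseased, red squares APP/PS1, open symbols NLRP3.KO) and bars are 95% Poisson intervals. Ccl6 in all microglia stands at 417 and 479 CPM in the 9-month APP/PS1 and APP/PS1 NLRP3.KO libraries and at 135 to 213 CPM in the other 8.

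In IEG microglia, Ccl9 was at 586, 199.8 and 286 CPM in WT and 347, 209 and 291 CPM in NLRP3.KO at 3, 6 and 9 months, and at 559.7 and 315 CPM in APP/PS1 and 416 and 346 CPM in APP/PS1 NLRP3.KO at 3 and 9 months. The libraries of 3 months were the highest, at 347 to 586 CPM, led by the 2 with an intact Nlrp3 gene. Those of 6 and 9 months had 199.8 to 346 CPM in both Nlrp3 genotypes. Age cannot be told apart from batch here. The 10 dissociation and immediate early genes of the list summed to 1127 to 1692 CPM in IEG of the 5 libraries with Nlrp3 (median 1191) and to 955 to 1192 CPM in those of NLRP3.KO (median 1014). The highest sum, 1692 CPM, was in WT at 6 months, the library with the lowest Ccl9 in IEG, while WT and APP/PS1 at 3 months had 1148 and 1435 CPM. The part of these genes in the Ccl9 values was not tested.

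The IEG cluster depended on the annotation. Of its cells, 1118 were called IEG also in the annotation of all CD45+ cells, and these had 489 CPM of Ccl9 and 367 CPM of Ccl6. The 355 cells that the second annotation called DAM had 297 CPM of Ccl9 and 547 CPM of Ccl6, and the 531 cells it called HM had 187 CPM of each gene. Within the IEG cluster, Ccl9 was thus highest in the cells both annotations called IEG, and Ccl6 in those also called DAM. In the 788 cells that both annotations called DAM, Ccl6 was at 1246 CPM and Ccl9 at 225 CPM. These splits were chosen after seeing the data.

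Because the clusters may rest on the chemokines themselves, a second class of DAM-like cells was formed without them. A microglial cell thinned to 1500 UMIs entered it with UMIs of at least 2 of Cst7, Lpl, Itgax, Spp1 and Csf1, genes known to rise in DAM. The class held 507 cells, of which 32.9% were DAM and 39.8% IEG in the study's annotation, and 18.5% of all DAM. In single libraries it held from 11 cells (WT at 6 months) to 126 cells (APP/PS1 NLRP3.KO at 3 months). At this depth the values of the smallest classes rest on few UMIs.

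Ccl6 was higher in this class than in the other microglia of the same library in 10 of 10 libraries, on average by 1.66 ± 0.73 (SD) on the log2 scale or 3.16-fold. Ccl9 was also higher in 10 of 10 libraries, by 1.19 ± 0.76 or 2.28-fold. By the exact two-sided sign-flip permutation test over the 10 libraries, both had p = 0.00195, the smallest this test can give. In the APP/PS1 libraries of 9 months the ratio was large for Ccl6 and small for Ccl9. Ccl6 was at 1894 CPM in the class against 271 CPM in the rest in APP/PS1. In APP/PS1 NLRP3.KO it was at 1753 against 309 CPM. Ccl9 was at 248 against 182 CPM in APP/PS1. In APP/PS1 NLRP3.KO it was at 144.3 against 142.7 CPM, a ratio of only 1.01-fold. Without cells with a doublet score over 0.5, Ccl6 was higher in the class in 9 of 9 libraries and Ccl9 in 8 of 9. The log2 ratios of Ccl9 then ran from -0.18 to 2.21, so its direction in every library did not hold in this setting.

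Microglia were also grouped by how many of these 5 genes they held, with the cells of all libraries pooled. Ccl6 was at 156 CPM in the 37055 microglia with 0 of them, 276 CPM in 2985 with 1, 967 CPM in 420 with 2 and 1625 CPM in 87 with 3 or more. Ccl9 was at 147, 212, 300 and 559 CPM in the same cells. The pooled values mix libraries unequally. The medians over the 10 libraries were 147, 223 and 371 CPM for Ccl6 and 143, 198 and 294 CPM for Ccl9 with 0, 1 and 2 genes. Only 3 libraries had at least 10 cells with 3 or more, where the medians were 1556 CPM for Ccl6 and 289.9 CPM for Ccl9, so that the higher pooled value of Ccl9 in this step was not seen in the median.

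**Figure D3:**
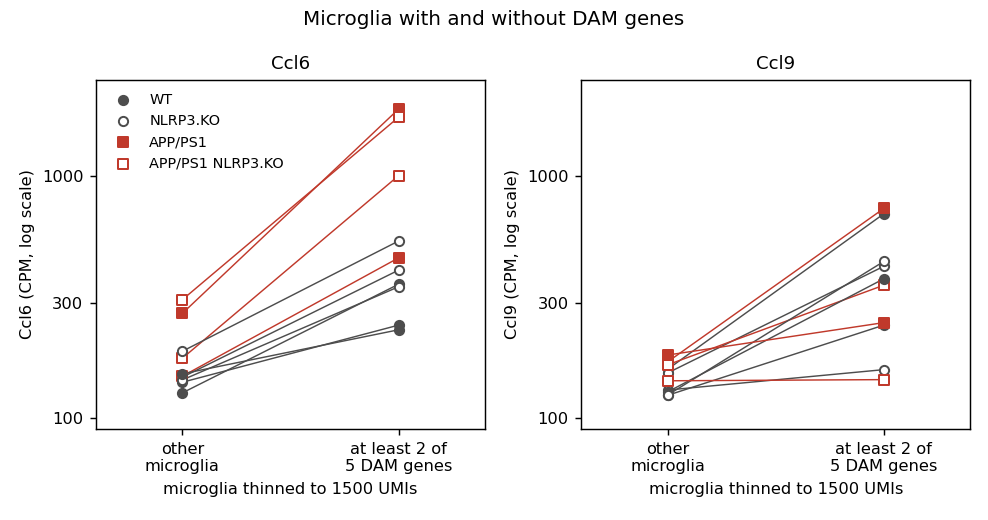
Ccl6 and Ccl9 in CPM after thinning to 1500 UMIs in microglia with at least 2 of 5 DAM genes and in all other microglia, where each line joins the 2 values of 1 library (grey circles non-diseased, red squares APP/PS1, open symbols NLRP3.KO). All 10 lines rise for each gene, by 0.60 to 2.80 on the log2 scale for Ccl6 and by 0.02 to 2.13 for Ccl9.

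Over all microglia of a library, Ccl6 was at 135, 143 and 170 CPM in WT and 161, 145 and 196 CPM in NLRP3.KO at 3, 6 and 9 months. It was at 171 and 417 CPM in APP/PS1 and at 213 and 479 CPM in APP/PS1 NLRP3.KO at 3 and 9 months. The 2 transgenic libraries of 9 months stood apart from the other 8.

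Ccl9 was at 170, 135 and 134 CPM in WT, at 158, 140.4 and 130.01 CPM in NLRP3.KO, at 193 and 186 CPM in APP/PS1 and at 172 and 161 CPM in APP/PS1 NLRP3.KO. The 4 APP/PS1 libraries lay between 161 and 193 CPM and overlapped with the non-diseased libraries, which spanned 130.01 to 170 CPM.

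For the question of the transgenes, all microglia were compared over the same 4 pairs. Ccl6 was higher in the APP/PS1 library of 4 of 4 pairs, with a log2 fold change of 0.85 ± 0.19 (SE), and Ccl9 also in 4 of 4 pairs, with 0.29 ± 0.07. Neither passed the test over all 12007 genes (edgeR, adjusted p = 0.432 and 0.470). Of all genes counted in every library 8.58% were higher in every pair, and 0.025% of the genes tested were called (Ccl4, Baiap2l2 and Ch25h), against 7.3% at an unadjusted p under 0.05. A change in the shares of states and a change in RNA per cell cannot be told apart in such sums alone. Values with the state shares held equal are given below. Markers of monocytes and border macrophages were low in these microglia and lay mostly higher with APP/PS1, with 6 to 8 of 8 monocyte and 5 to 8 of 8 border macrophage markers counted in a library. In the microglia of the 4 APP/PS1 libraries the monocyte markers summed to 9.25 to 23.2 CPM and the border macrophage markers to 8.46 to 14.5 CPM, against 6.80 to 9.70 CPM and 4.88 to 8.73 CPM in the 4 non-diseased libraries of the pairs. The dendritic cell markers, which include Siglech, a gene known from microglia too, summed to 1774 to 2065 CPM against 1752 to 1921 CPM and the B cell markers to 300.2 to 336 CPM against 299 to 320 CPM. The NK cell markers summed to 0.784 to 1.51 CPM against 0.232 to 0.557 CPM. For the neutrophil markers the sums were 2.99 to 21.2 CPM against 1.55 to 8.82 CPM. The T cell markers had 0.888 to 3.17 CPM against 0.537 to 1.59 CPM. The microglial markers summed to 22944 to 26183 CPM against 24752 to 26029 CPM. Their part in the result was not tested.

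The ratio of Ccl6 between APP/PS1 and non-diseased microglia was 2.45-fold with Nlrp3 and 2.44-fold without it at 9 months, and 1.26-fold and 1.32-fold at 3 months. The difference between the ages was 0.996 ± 0.09 (SE) on the log2 scale for Ccl6. Ccl6 had the lowest p-value of all 12007 genes in this comparison (edgeR, unadjusted p = 2.55e-05), but the adjusted p was 0.253 and 0% of the genes were called. DESeq2 gave Ccl6 an adjusted p of 3.69e-07 and called 6 genes, with Ccl6 just under the fold limit, and 4.78% of genes had an unadjusted p under 0.05 with edgeR. In HM alone the difference between ages was 0.17 on the log2 scale.

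For Ccl9 the difference between the ages was 0.32 ± 0.10 (edgeR, adjusted p = 0.884). It too had a low unadjusted p, 0.0151 by the model across all genes.

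DAM made up 11.7% and 11.5% of microglia in the 2 transgenic libraries of 9 months, against at most 3.79% in the other 8. With every library set to the same shares of states, the mean log2 ratio over the 4 pairs was 0.50 instead of 0.83 for Ccl6 and 0.15 instead of 0.27 for Ccl9, and all 4 pairs kept their direction for both genes. By the exact two-sided sign-flip permutation test over 4 pairs each of these had p = 0.125, the smallest that 4 pairs allow.

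DAM supplied 0.830% to 46.1% of the Ccl6 UMIs of a library (median 9.06%) while making up 0.410% to 9.09% of its cells. HM supplied 17.6% to 72.6%. For Ccl9, DAM supplied 0.490% to 17.4% and IEG 5.10% to 20.3% of the UMIs. The share from DAM thus spanned a wider range over libraries for Ccl6 than for Ccl9.

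**Figure D4:**
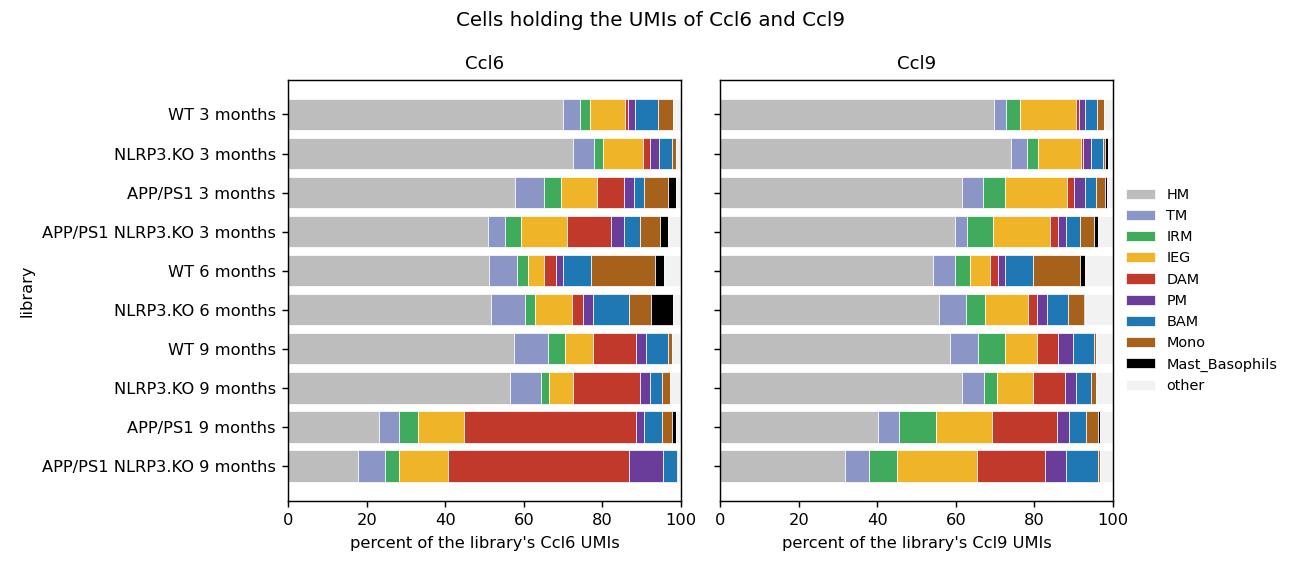
Share of all Ccl6 and Ccl9 UMIs of each library (percent) that came from each microglial state and cell type, as stacked bars with BAM including BAM Lyve1 and Mono including Mono NC. For Ccl6 the DAM segment reaches 46.1% and for Ccl9 17.4%.

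Of the 9 populations tested for the transgenes, DAM was the 1 in which either gene was called in the reported fit, and there only Ccl6. In the other states Ccl6 had positive fold changes that were not called, namely 0.25 ± 0.06 in HM, 0.41 ± 0.09 in TM (adjusted p = 0.149), 0.70 ± 0.14 in IRM (adjusted p = 0.104), 0.57 ± 0.14 in IEG (adjusted p = 0.366) and 0.96 ± 0.25 in PM (adjusted p = 0.951). The value in PM rested largely on the APP/PS1 NLRP3.KO library of 9 months, whose 66 proliferating cells had 803 CPM against 132 to 284 CPM in the others, and was 0.50 without its pair. The adjusted p in these states moved with the setting. Without a filter on low counts it was 0.0170 in TM, 5.25e-07 in IRM, 0.000346 in IEG and 1.09e-07 in PM, at fold changes of 0.41, 0.72, 0.57 and 0.97, which stayed under the limit of 1. With DESeq2 it was 0.813 to 0.9999 in these 4 states. Without the Nlrp3-carrying pair of 3 months Ccl6 in PM was called, at 1.29 (adjusted p = 0.00904). For Ccl9 the values were 0.16 in HM, 0.03 in TM, 0.38 in IRM (adjusted p = 0.616), 0.15 in IEG and 0.20 in PM. With 1 pair left out they ran from 0.084 to 0.21 in HM, 0.0057 to 0.070 in TM, 0.25 to 0.51 in IRM, 0.11 to 0.24 in IEG and 0.084 to 0.32 in PM. The lowest values came without the Nlrp3-carrying pair of 9 months in HM and IRM, without that of 3 months in TM and PM, and without the NLRP3.KO pair of 9 months in IEG. Outside microglia, Ccl6 had 0.32 ± 0.20 in BAM, -0.06 ± 0.30 in BAM Lyve1 and -0.23 ± 0.26 in cDC2, and none of these was called. The value in BAM was 0.038 without the Nlrp3-carrying pair of 9 months and 0.60 without that of 3 months. Counted over the 9 populations tested, 7 fold changes were positive for each gene, 1 was called for Ccl6 and 0 for Ccl9 by edgeR and by DESeq2 alike. At an unadjusted p under 0.05 the counts were 6 for Ccl6 and 2 for Ccl9. Of the 59018 tests of all genes in these 9 fits 0.286% were called and 6.22% had an unadjusted p under 0.05.

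The Nlrp3 deletion was compared over 5 pairs of an NLRP3.KO library and a library with Nlrp3 of the same age and background. Ccl6 in microglia was higher in the NLRP3.KO library of 5 of 5 pairs, by 0.21 ± 0.05 (SE) on the log2 scale, which was not called (edgeR, adjusted p = 0.899). The 5 ratios ran from 1.02-fold to 1.25-fold. Of all genes counted in every library 3.27% were higher in every pair, and 0.0166% of 12048 genes were called (Nlrp3 itself and Hist3h2a, a histone gene), against 4.57% at an unadjusted p under 0.05. The exact two-sided sign-flip permutation test gave p = 0.0625, the smallest that 5 pairs allow.

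With the state shares held equal, the mean log2 ratio of Ccl6 was 0.13 instead of 0.20 and was positive in 4 of 5 pairs. Ccl9 was higher in 1 of 5 pairs, with a log2 fold change of -0.08 ± 0.05 (adjusted p = 0.899). The difference in the effect of the deletion between APP/PS1 and non-diseased backgrounds was 0.13 ± 0.09 (SE) for Ccl6 and -0.13 ± 0.09 for Ccl9. Both had an edgeR adjusted p of 0.9998, 0% of 12048 genes were called and 2.47% had an unadjusted p under 0.05, and DESeq2 called 1 gene.

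Within states and cell types, 0 of 9 populations were called with the deletion for either gene by edgeR or by DESeq2, and 2 of 9 had an unadjusted p under 0.05 for each gene. Ccl6 had a positive fold change in 8 of 9 populations, from 0.05 in BAM to 0.62 ± 0.20 in PM (0.27 without the pair of APP/PS1 libraries of 9 months), and -0.14 ± 0.11 in IRM. Ccl9 had a positive value in 3 of 9, with -0.37 ± 0.16 in DAM (adjusted p = 0.556), -0.33 ± 0.11 in IRM and -0.24 ± 0.12 in IEG. Without the non-diseased pair of 3 months Ccl9 was at -0.20 in DAM and -0.075 in IEG, and without the APP/PS1 pair of 9 months at -0.21 in IRM. Of the 59300 tests in these 9 fits 0.0607% were called and 5.07% had an unadjusted p under 0.05.

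**Figure D5:**
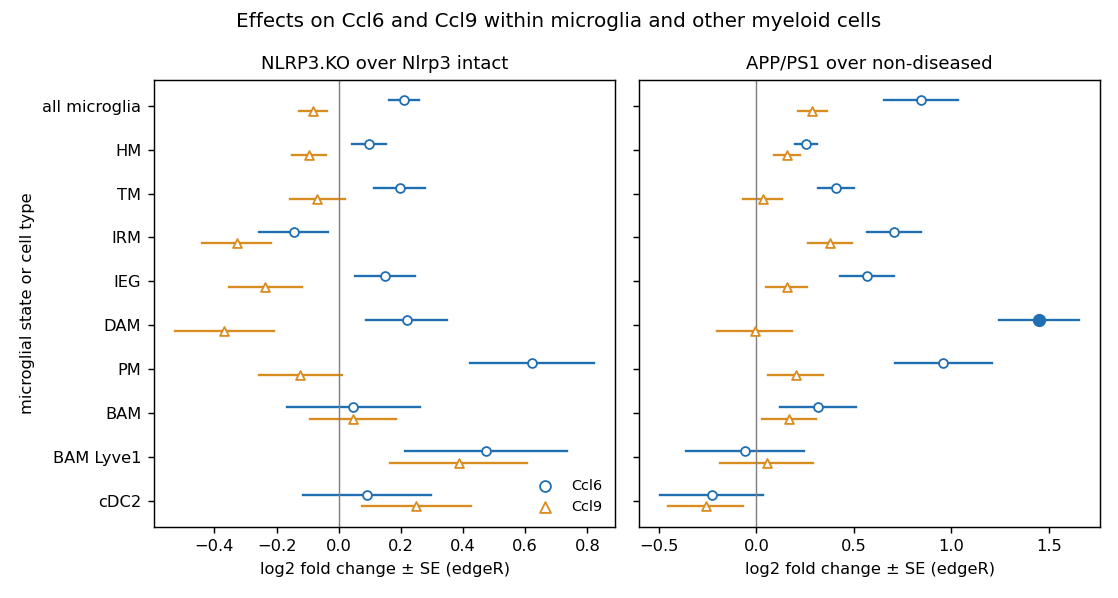
Log2 fold changes of Ccl6 and Ccl9 with the Nlrp3 deletion and with APP/PS1 in all microglia, each microglial state and other cell types (circles Ccl6, triangles Ccl9, bars ± SE, edgeR, filled where called). Ccl6 in DAM with APP/PS1, at 1.45, is the 1 filled point.

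RNA of the receptor Ccr1 was higher in several other myeloid populations than in microglia. It was at 308 CPM in mast cells and basophils, 277 CPM in BAM Lyve1, 110.3 CPM in BAM, 109 CPM in cDC2 and 109 CPM in neutrophils, and at 51.1 CPM in monocytes. Microglia had 9.21 to 16.3 CPM over the 10 libraries, and within them DAM had 24.97 CPM and HM 10.6 CPM, beside 9.20 CPM in non-classical monocytes, 8.84 CPM in B cells and 3.76 CPM in T cells. Ccr1 had a log2 fold change of 0.26 ± 0.14 in microglia with APP/PS1 (edgeR, adjusted p = 0.706) and of 0.03 ± 0.13 with the deletion (adjusted p = 0.9999).

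Of the 21 CC chemokine ligands listed, 11 had enough counts to be tested in microglia. With APP/PS1, 9 of 11 fold changes were positive, with a median of 0.29 beside 0.00 over all genes. By edgeR 1 was called, by DESeq2 2 were (Ccl3 and Ccl4), and 6 had an unadjusted p under 0.05. Over all genes of this fit 0.025% were called by edgeR, 14 genes by DESeq2, and 7.3% had an unadjusted p under 0.05. The 1 called by edgeR was Ccl4, an attractant of monocytes and T cells, which rose by 1.34 ± 0.13 (adjusted p = 0.0335). Ccl3, which binds Ccr1, had 1.37 ± 0.20 (adjusted p = 0.172), and the monocyte attractants Ccl2 and Ccl12 had 0.52 ± 0.14 and 0.37 ± 0.13 (adjusted p = 0.490 and 0.622). Ccl5, Ccl24 and Ccl25 had values from -0.09 to 0.06. With the deletion, 7 of 11 ligands were positive, with a median of 0.12 beside 0.01, and 0 were called by edgeR or DESeq2, with 4 at an unadjusted p under 0.05, beside 0.0166% called by edgeR and 4.57% at an unadjusted p under 0.05 over all genes.

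Of the 16 CC chemokine receptors listed, 7 were tested with APP/PS1, all with a positive fold change and a median of 0.26, and 0 were called by edgeR or DESeq2, with 2 at an unadjusted p under 0.05, beside the same 0.025% and 7.3% of all genes. The receptors tested include Ccrl2, an atypical receptor, with 0.46 ± 0.08 (adjusted p = 0.242). With the deletion, 2 of 8 receptors were positive, with a median of -0.07, and 0 were called by edgeR or DESeq2 or had an unadjusted p under 0.05.

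Across the 19 populations of at least 50 cells, the pattern of Ccl6 was most like those of Ptpro (r = 0.935), App (0.927), Nupr1 (0.925), Snx10 (0.923) and Il13ra1 (0.918) among 6008 genes. The pattern of Ccl9 was most like those of Ptpro (0.937), Snx10 (0.934), Cd302 (0.926), Cebpa (0.913) and Acer3 (0.913). These are Pearson correlations of log2(CPM + 1), and the populations share libraries. Ccl9 was 21st in likeness to Ccl6, with r = 0.897, and Ccl6 was 11th in likeness to Ccl9.

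The 2 chemokines were found in the same cell slightly more often than their separate shares would give. After thinning to 1500 UMIs, the median odds ratio of detection over libraries was 1.27 in HM (above 1 in 10 of 10 libraries), 1.13 in IEG (6 of 10) and 1.14 in DAM (5 of 7). It was 2.05 in PM (8 of 10) and 2.29 in BAM (7 of 7). Without thinning the medians were 1.42 in HM, 1.78 in IEG, 1.24 in DAM, 1.62 in PM and 3.97 in BAM, and cells of a library share depth, so these ratios are a description.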

How the data were processed

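The authors sequenced CD45+ cells with 10x Genomics 3′ chemistry and, per the submitters' processing notes, used Cell Ranger with mm10. They deposited raw UMI counts per gene and cell, 1 annotation of all CD45+ cells and 1 of the microglia. The authors' annotation also gives the percent of mitochondrial UMIs, the fraction of ribosomal protein UMIs, a doublet score and a batch number, where each of 3 batches holds 1 age. Of the sample names, 2 (6897 cells) matched no sample description and were not analysed here.

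Counts were summed over the cells of a population in each library, passed through filterByExpr and TMM scaling, and compared by quasi-likelihood F tests (edgeR 4.0.16, R 4.3.3) with the pair as block and Benjamini-Hochberg adjustment over all genes tested. A call needed an adjusted p under 0.05 and a log2 fold change beyond 1 in either direction. A population was fitted where at least 3 pairs had 10 or more cells in both libraries. T, B and NK cells were fitted, but neither chemokine passed the filter there, and NKT, ILC2, pDC, Mono, Mono NC and Neutro had too few pairs. The pools are 1 library per group. The p-values of the fits thus measure how the difference within a pair varies over pairs of different ages, backgrounds or Nlrp3 genotypes. The scripts were tested on simulated data. Alternatives were DESeq2 1.42.0, other scalings, no filter, HM only, no cells with a doublet score over 0.5, thinning to 1500 UMIs (0 cells were shallower), additive covariates, sign-flip tests, the other annotation and leaving out each pair or library.

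The genes named are Ccl6, Ccl9, the 5 genes most like each across populations, CC chemokine ligands and receptors of at least 10 CPM in microglia, Ccr1 and Nlrp3. The members, lists and tests were chosen with earlier results of these data known.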

Additional observations from a re-analysis of the deposited data

Results flagged for a closer look

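Among 80 groups of libraries examined, chance alone would flag about 1 in 20 if the values of a group were alike and independent. The groups mix ages, and Nlrp3 genotypes or backgrounds, and they share libraries, so this rate is only a rough guide. In all microglia, Ccl6 was far above the others of its group in the APP/PS1 library of 9 months (417 CPM, against 135 to 171 CPM in the other libraries with Nlrp3) and in the APP/PS1 NLRP3.KO library of 9 months (479 CPM, against 145 to 213 CPM in the other libraries without it). Single libraries also stood apart within populations. Ccl6 in IRM was at 288 CPM in APP/PS1 at 9 months (other libraries with Nlrp3 92.7 to 123 CPM), and in PM it was at 803 CPM in APP/PS1 NLRP3.KO at 9 months (other NLRP3.KO libraries 170.0 to 284 CPM). In PM of non-diseased libraries the WT library of 9 months was lowest, at 132 CPM (others 170.0 to 189.6 CPM). Ccl6 in BAM was at 607 CPM in APP/PS1 at 9 months (other libraries with Nlrp3 154 to 281 CPM), and at 399.75 CPM in NLRP3.KO at 6 months (other non-diseased libraries 214 to 281 CPM).

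In BAM Lyve1 the ratio of APP/PS1 to non-diseased libraries ran in opposite directions by Nlrp3 genotype. For Ccl6 it averaged 1.215 on the log2 scale without Nlrp3 (0.53 and 1.90 in the 2 pairs) and -1.07 with Nlrp3 (-1.33 and -0.81), which is a difference of -2.29. For Ccl9 the averages were 0.66 (0.10 and 1.21) and -0.45 (-0.57 and -0.32), a difference of -1.10. These were the 2 opposite cases among 54 splits examined, a number that chance alone could give with so few pairs. Both cases come from the same cells, 13 to 69 BAM Lyve1 cells in each library of these pairs. The differences were not tested.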

How the results depend on the processing

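Of the values that answer a comparison, 166 kept their side of the threshold and direction or count under the alternatives, 18 moved, 2 no longer passed, 1 newly passed and 1 turned its direction. Many of the 166 were values called neither in the reported fit nor under the alternative. They include the sign-flip tests over 4 or 5 pairs, which could not pass because their smallest possible p is 0.125 or 0.0625. The 166 also count DAM against HM as assigned by the study, for both genes. That setting is no independent support, since the clusters may rest on these genes. The difference in the Nlrp3 effect between backgrounds for Ccl6 turned to -0.046 with HM cells only. The difference between ages for Ccl6 was 0.96 to 1.03 when 1 pair was left out, and passed both limits, at 1.02, without the Nlrp3-carrying pair of 9 months, a fit with 1 residual degree of freedom. With at least 3 of the 5 DAM genes, the class was at 2.67 for Ccl6 and 0.76 for Ccl9 (log2), and only 3 libraries could be used, which cannot pass an exact test.

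Numbers of genes called depended on the tool. With the Nlrp3 deletion they were 2 in the reported fit, 6 with DESeq2, 4 with HM only, thinning, additive covariates or the adjusted p alone, and 2 to 8 with 1 pair left out. With APP/PS1 they were 3, then 14 with DESeq2, 5 without a filter, with thinning or with the adjusted p alone, 0 with HM only and 0 to 9 with 1 pair left out. DESeq2 called 1 gene between backgrounds and 6 between ages against 0 and 0, and leaving out a pair gave 0 to 214 between ages, the largest without the NLRP3.KO pair of 9 months. Ccl6 in all microglia was called for neither contrast under any of these.

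Small effects changed sign. With APP/PS1, Ccl9 in DAM was 0.031 with DESeq2, 0.052 without a filter and -0.25 to 0.15 without 1 pair. Ccl6 in BAM Lyve1 was 0.027 with DESeq2 and -0.43 to 0.46 without 1 pair, Ccl9 there -0.18 to 0.23, and Ccl6 in cDC2 -0.45 to 0.16. With the states of the other annotation, Ccl9 in TM was -0.036 with APP/PS1 and 0.093 with the deletion, and Ccl6 in IRM was 0.16 with the deletion. Without 1 pair, the deletion gave -0.20 to 0.35 for Ccl6 in BAM, -0.064 to 0.14 for Ccl9 in BAM, -0.21 to 0.019 for Ccl9 in PM and -0.10 to 0.33 for Ccl6 in cDC2. Without the Nlrp3-carrying pair of 3 months, Ccl6 in PM passed the limits with APP/PS1, at 1.29. The causes were not tested.

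The pairs of the fits are libraries matched by age and genotype, not by a replicate number. The labels give no replicate numbers that could serve as a further block. Depth was low where a library held few cells of a state, as for DAM with 24 to 253 cells.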

Other observations

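In the 79 cells annotated as Neutro, Ccl6 was at 82.1 CPM and Ccl9 at 5.94 CPM, the latter at the level of T cells. The Ccl6 value pools unlike libraries. The 2 with at least 10 of these cells had 26.4 CPM in WT at 6 months and 155 CPM in APP/PS1 NLRP3.KO at 3 months, the lower of them within the range of NK cells, which reached 34.0 CPM. A doublet score over 0.5 was found in 15.2% of these cells. Without them the mean of these 2 libraries went from 90.9 to 71.5 CPM for Ccl6 and from 7.02 to 3.26 CPM for Ccl9.

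Monocytes had too few libraries for a test. In the 5 libraries with at least 10 of them, Ccl9 was at 774 CPM in WT at 3 months, 695.6 CPM in WT at 6 months and 777.6 CPM in NLRP3.KO at 6 months, and at 388 CPM in APP/PS1 and 439.8 CPM in APP/PS1 NLRP3.KO at 3 months. The 2 transgenic libraries were the lowest for Ccl9, while Ccl6 ran from 742 to 1174 CPM with the groups overlapping.

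Each of the 5 DAM genes taken alone marked cells with more of both chemokines in most libraries. Among microglia thinned to 1500 UMIs, Ccl6 was higher in cells with a UMI than in cells without one in 10 of 10 libraries for Lpl, in 9 of 10 for Itgax and Csf1, in 8 of 10 for Cst7 and in 5 of 6 for Spp1. Ccl9 was higher in 10 of 10 libraries for Cst7, 9 of 10 for Lpl, 8 of 10 for Itgax, 7 of 10 for Csf1 and 6 of 6 for Spp1. Most cells with such a UMI were not DAM in the study's annotation. DAM made up 5.67% (Csf1) to 27.2% (Spp1) of them and IEG 20.7% (Cst7) to 38.3% (Spp1). The IEG share was the larger for every gene but Cst7. These single-gene splits were chosen after seeing the data and were given no test.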
